A study of Mus musculus with 10 samples.

Results

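Ufd1 and Cdc45 are neighbours on mouse chromosome 16 and are read from a shared start region in opposite directions. They belong to a block of genes whose human counterparts lie in the segment lost in DiGeorge syndrome. The account here covers 9 genes of that block, Ufd1, Cdc45, Hira, Cldn5, Txnrd2, Dgcr8, Ranbp1, Trmt2a and Zdhhc8, of 13492 genes in the deposited table, and each matched 1 row by symbol. The genes were chosen by name with the differences between the groups already known, so their differences between groups are given as a description and carry no test. Other genes of the block were taken by position alone and were tested where their mean level passed the minimum given below.

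RNA came from the tibialis anterior, a fast muscle of the lower hind limb, of mice with a C57BL/6 background, aged 6 months and fasted for 3 h. The 5 libraries of genotype Lrtm1 KO are called knockout here. The 5 libraries of genotype Lrtm1 WT, which the design text calls flox control, are called control. The design text gives 4 per group where the labels give 5, and neither the Cre driver nor the deleted stretch of Lrtm1 is stated there. The libraries came from 3 litters, with 2 knockout and 1 control library in litter 108, 1 and 2 in litter 110, and 2 and 2 in litter 112. Nothing in the labels says that each library is a separate animal, so the spread may be technical in part.

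Values are adjusted log2 CPM (counts scaled to the library size). The values carried no trace of litter and of 3 further terms, which had been removed with the genotype difference kept, so the spreads between libraries are those left after that step. Library medians lay between 3.35 and 3.36 log2 CPM, and the read depth behind them is unknown. The 6 muscle fibre markers summed to between 84881 and 88615 CPM in the knockout group and between 75228 and 87540 CPM in the controls. All 6 differences were above 0, with overlapping groups for each, and none passed the test described below. Lrtm1 itself stood at 5.97 to 6.21 log2 CPM in the knockout group and at 5.61 to 5.78 in the controls, a log2 difference of 0.44 upward in a group labelled as lacking the gene. A summed level does not show whether the deleted stretch is still present, so every direction below is between libraries as labelled.

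The products of these genes work in separate pathways. UFD1 pairs with NPL4 to bring ubiquitin-tagged proteins to the ATPase p97 (VCP), which unfolds them for the proteasome, and CDC45 joins the MCM ring and the GINS complex to form the helicase that opens DNA for replication. HIRA loads the histone variant H3.3 outside replication, DGCR8 is the RNA-binding partner of DROSHA in microRNA processing, and TRMT2A methylates uridine in transfer RNA. TXNRD2 reduces thioredoxin in mitochondria, RANBP1 binds the GTP form of Ran and aids its hydrolysis after nuclear export, ZDHHC8 attaches palmitate to proteins, and CLDN5 seals the junctions between endothelial cells.

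Ufd1 (ENSMUSG00000005262) lies on the plus strand from 18811779 to 18835261 of chromosome 16 and Cdc45 (ENSMUSG00000000028) on the minus strand from 18780447 to 18811987 (GENCODE M21, GRCm38). Their annotated 5′ ends overlap by 209 bases, all of them exonic in both genes, which is 4.82% of the exonic bases of Ufd1 and 5.96% of those of Cdc45. The libraries were stranded, but no source used here says whether counting used the strand, and without it reads from the overlap cannot be assigned to either gene. RefSeq (GRCm38.p6) places the main starts 322 bases apart, so that the windows from 250 bases before to 50 bases after each start share 179 bases. The start windows of Ufd1 and Cdc45 are shown because these neighbours had the largest differences of the 9, and that of Trmt2a because it belongs to a like-built pair that did not share the rise. Each reads 5′ to 3′ on its own strand, and capitals mark matches to any of 8 short motifs named below.
Ufd1, chr16:18812044-18812343, plus strand: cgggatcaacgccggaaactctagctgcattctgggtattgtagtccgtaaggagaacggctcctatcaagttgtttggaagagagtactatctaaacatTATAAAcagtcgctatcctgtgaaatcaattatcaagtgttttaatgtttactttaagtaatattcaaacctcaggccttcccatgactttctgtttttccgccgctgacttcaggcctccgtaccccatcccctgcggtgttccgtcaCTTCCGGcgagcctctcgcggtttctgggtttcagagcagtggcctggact
Cdc45, chr16:18811923-18812222, minus strand: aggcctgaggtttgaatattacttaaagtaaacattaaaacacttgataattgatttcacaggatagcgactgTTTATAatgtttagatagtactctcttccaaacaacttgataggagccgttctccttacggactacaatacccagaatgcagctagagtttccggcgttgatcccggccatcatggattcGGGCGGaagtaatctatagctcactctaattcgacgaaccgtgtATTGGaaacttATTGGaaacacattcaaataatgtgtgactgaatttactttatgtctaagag
Trmt2a, chr16:18248633-18248932, plus strand: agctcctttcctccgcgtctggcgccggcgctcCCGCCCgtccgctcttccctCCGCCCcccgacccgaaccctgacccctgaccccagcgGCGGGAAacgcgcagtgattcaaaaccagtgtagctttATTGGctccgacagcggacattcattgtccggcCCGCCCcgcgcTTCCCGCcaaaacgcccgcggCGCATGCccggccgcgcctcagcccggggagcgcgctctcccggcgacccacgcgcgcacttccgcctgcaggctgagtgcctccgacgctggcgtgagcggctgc

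The windows of Ufd1 and Cdc45 were poorer in G and C (47.7% and 38.7%) than that of Trmt2a (72.0%), beside a median of 52.7% over 32851 start windows of all genes. Both strands were searched for CCAAT (the CCAAT box), GGGCGG (the GC box), CCGGAAG (an ETS factor motif), CACGTG (the E-box), TATAAA (the TATA box), GCATGCG (a core of the NRF1 motif) and the E2F motif forms TTCCCGC and also TTGGCGC. Ufd1 held 1 match to CCGGAAG, a motif present in 8.86% of all windows, which spans its start, and 1 to TATAAA (13.6% of all windows), which lies in the shared stretch and is therefore also the TATAAA match of Cdc45. Cdc45 held 2 further matches to CCAAT (37.4% of all windows) and 1 to GGGCGG (35.7%). Trmt2a held 1 match to CCAAT, 3 to GGGCGG, 1 to GCATGCG (3.58%) and 2 to TTCCCGC (4.60%). These matches describe the letters and are not evidence of binding.

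Ufd1 was 1.41-fold higher in the knockout group than in the controls. It stood at 6.08, 6.13, 6.08, 6.12 and 6.13 log2 CPM in knockout replicates 1 to 5 and at 5.62, 5.64, 5.61, 5.50 and 5.70 in control replicates 1, 3, 4, 5 and 6. The groups were 0.38 apart at their nearest libraries, and control replicate 5 was the lowest of all. Mean levels were 68.9 ± 1.27 CPM in the knockout group and 49.1 ± 2.41 CPM in the controls (SD, n = 5 each), a log2 difference of 0.49 (SE 0.06). Split by litter, Ufd1 stood higher by 0.48 (108), 0.45 (110) and 0.52 (112). The adjustment removed litter and further terms and kept the genotype difference, so values by litter are not independent repeats, here and below. All litters gave 1 direction in 47.9% of all genes tested.

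Cdc45 was higher by the same factor, 1.41-fold, at a far lower level. Its values were 1.61, 1.68, 1.65, 1.53 and 1.57 log2 CPM in knockout replicates 1 to 5, against 1.04, 1.21, 0.97, 1.03 and 1.31 in control replicates 1, 3, 4, 5 and 6. Here too every knockout library lay above every control, by 0.21 at the nearest, with control replicates 3 and 6 the highest of the controls. Means were 3.05 ± 0.127 CPM against 2.17 ± 0.222 CPM (SD, n = 5 each), and the log2 difference of 0.50 had an SE of 0.15, wider than that of Ufd1. Litter 108 gave 0.61, litter 110 gave 0.56 and litter 112 gave 0.38. On a scale of log2(CPM + 1), which shrinks low values, the difference of Cdc45 was 0.36.

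The ratio of Ufd1 to Cdc45 had nearly the same mean in both groups, which restates their near-equal differences. Within a library, log2 CPM of Ufd1 less that of Cdc45, which is not corrected for length, averaged 4.50 ± 0.07 in the knockout group and 4.50 ± 0.11 in the controls (SD, n = 5 each). It ranged from 4.42 to 4.59 and from 4.38 to 4.64. Whether reads from the overlapping 5′ ends contribute to this was not tested.

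**Figure D1:**
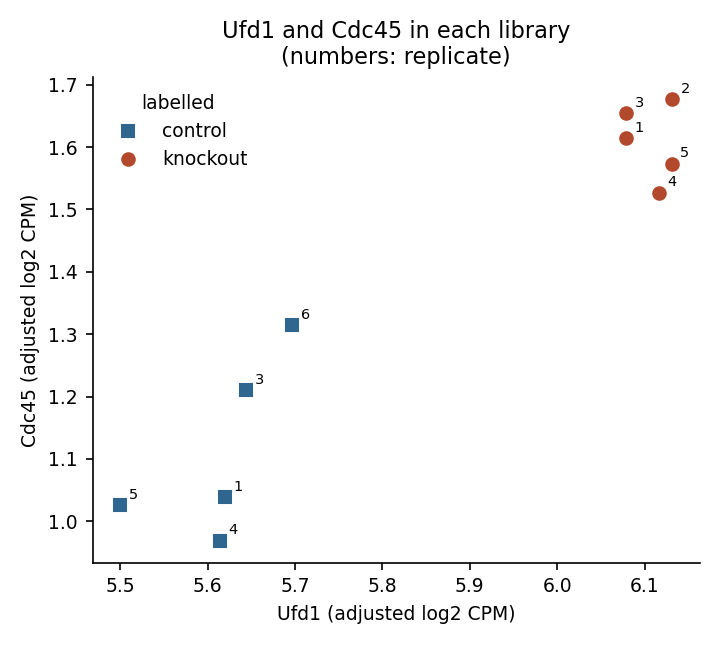
Each point is 1 library, with adjusted log2 CPM of Ufd1 on the x axis and of Cdc45 on the y axis; squares are control and circles knockout libraries, and numbers are replicates. The 5 knockout libraries sit at the upper right (Ufd1 from 6.08 to 6.13, Cdc45 from 1.53 to 1.68), apart from the 5 controls on both axes.

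The other 7 genes of the set did not share that rise. Their differences ran from -0.16 (Trmt2a) to 0.06 (Dgcr8) on the log2 scale, with 2 above 0 and 5 below, and a median of -0.05. Hira (ENSMUSG00000022702, plus strand, 18877037 to 18970309), the histone chaperone gene, starts 65.3 kb beyond Ufd1. It had 4.52, 4.46, 4.48, 4.40 and 4.49 log2 CPM in knockout replicates 1 to 5 and 4.39, 4.41, 4.44, 4.47 and 4.43 in the controls, which overlap. Its log2 difference was 0.04 (SE 0.07). Cldn5 (ENSMUSG00000041378, plus strand, 18776847 to 18778262), the endothelial junction gene, starts 34.9 kb on the other side. It ranged from 1.71 to 1.96 in the knockout group and from 1.76 to 2.08 in the controls, with groups that overlap, and differed by -0.06 (SE 0.13). Litter 112 gave a positive value (0.13), and the other litters gave negative ones.

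Trmt2a (ENSMUSG00000022721, plus strand, 18248679 to 18254772), the transfer RNA methyltransferase gene, had the largest difference downward of the 9. Its values were 2.86, 2.88, 2.84, 2.93 and 2.93 log2 CPM in the knockout libraries and 3.08, 3.03, 3.12, 2.99 and 3.03 in the controls. All 5 knockout libraries were below all 5 controls, by 0.06 at the nearest, and the log2 difference was -0.16 (SE 0.09). Exons of Trmt2a share 825 bases with those of Dgcr8 on the opposite strand, so the assignment of reads between them is uncertain in the same way. Dgcr8 (ENSMUSG00000022718, minus strand, 18253948 to 18289246), the microRNA processing gene, differed the other way, by 0.06 (SE 0.07), with 3.74 to 3.83 in the knockout group and 3.69 to 3.74 in the controls, ranges that overlap slightly.

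Txnrd2 (ENSMUSG00000075704, plus strand, 18426384 to 18479073), the mitochondrial reductase gene, stood at 3.75 to 3.79 log2 CPM in the knockout libraries and 3.79 to 3.83 in the controls. The groups were 0.0013 apart and the log2 difference was -0.05 (SE 0.07), so a lack of overlap here goes with a very small difference. Ranbp1 (ENSMUSG00000005732, minus strand, 18239784 to 18248732), the Ran regulator gene, ranged from 2.59 to 2.70 in the knockout group and from 2.55 to 2.81 in the controls, where replicate 5 was far below the rest, and differed by -0.07 (SE 0.10). Zdhhc8 (ENSMUSG00000060166, minus strand, 18220753 to 18235136), the palmitoyltransferase gene at the far end, ranged from 4.92 to 5.03 and from 4.94 to 5.06, with ranges that overlap in large part, and differed by -0.02 (SE 0.06).

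**Figure D2:**
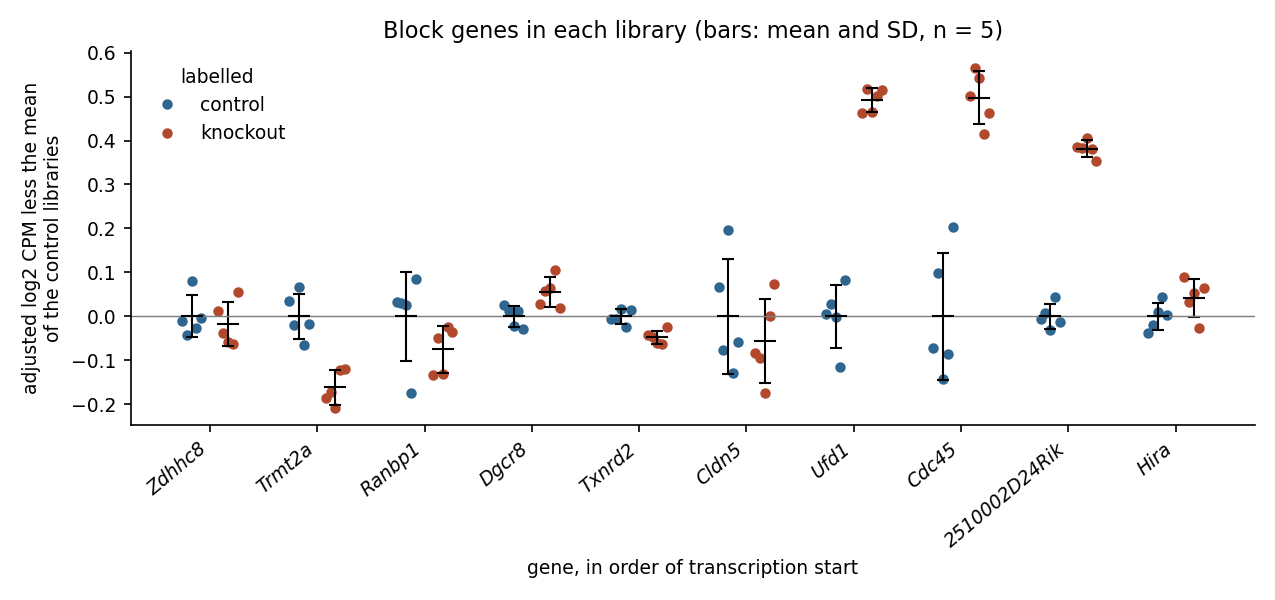
Adjusted log2 CPM of each library less the mean of the 5 control libraries (y axis), for the 9 genes and 2510002D24Rik in order of their starts (x axis); points are libraries and bars the mean and SD of each group (n = 5). Ufd1, Cdc45 and 2510002D24Rik are raised in every knockout library, and no other gene shows a rise of that kind.

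The 9 genes did not share 1 direction. In the limma fit over the 12223 genes whose mean log2 CPM was 0 or more, 1 of the 9, Ufd1, passed an adjusted p of 0.05, beside 0.335% of all genes (0.27% upward and 0.0655% downward). In a fit that does not count the terms removed before deposit, Ufd1 and Cdc45 passed, both upward, beside 8.62% of all genes (5.15% upward and 3.48% downward). The residuals span 3 of the 6 dimensions which that fit counts, so its p-values are too small, here and below. Groups did not overlap in 4 of the 9, Ufd1 and Cdc45 upward and Trmt2a and Txnrd2 downward, beside 16.2% of all genes tested (8.56% with the knockout group above and 7.63% with it below). Since the set was picked with this comparison known, nothing is read from these counts. The median difference of the 9 was -0.02, beside -0.0041 over all genes tested, and 4 were above 0 and 5 below. Of all genes tested, 1.60% had an absolute difference larger than Ufd1 and 1.56% larger than Cdc45.

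Of the tested and reported genes of the interval outside the set, that with the largest difference differed in the same direction as Ufd1 and lies next to it. The interval from the first to the last start of the 9 spans 0.642 Mb and 6 other tested genes in it are reported here: Tango2, Gnb1l, Tbx1, Septin5, 2510002D24Rik and Mrpl40. The gene 2510002D24Rik (ENSMUSG00000071632, plus strand, 18836578 to 18840160; synonym Pants in RefSeq) starts 24.8 kb from Ufd1 and is the next gene measured on that side. Its values were 3.28, 3.28, 3.30, 3.28 and 3.25 log2 CPM in knockout replicates 1 to 5 and 2.89, 2.90, 2.87, 2.94 and 2.88 in the controls. The knockout libraries were all higher, by 0.31 at the nearest. It was 1.30-fold higher, at 9.70 ± 0.128 against 7.45 ± 0.144 CPM (SD, n = 5 each), with differences of 0.39, 0.42 and 0.35 in litters 108, 110 and 112. The log2 difference of 0.38 (SE 0.08) did not pass in limma (adjusted p = 0.121). It passed in limma where the removed terms were not counted (adjusted p = 0.00142), a fit whose p-values are too small.

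The remaining 5 of these genes ran from -0.30 to 0.11 on the log2 scale and none passed in limma. Gnb1l, a gene of low level at 0.71 ± 0.15 against 1.02 ± 0.11 log2 CPM (SD, n = 5 each), differed by -0.30 (SE 0.17; adjusted p = 0.611), with the knockout libraries all lower than the controls. Mrpl40, which encodes a protein of the mitochondrial ribosome and starts next to Hira, differed by -0.16 (SE 0.10; adjusted p = 0.636), with overlapping groups. Over the 6 genes, none passed, 1 had an unadjusted p under 0.05, beside 10.1% of all genes tested, and the median difference was 0.04. Rtl10, deposited with a mean below the minimum, was not tested. Its log2 values averaged -0.49 ± 0.27 in the knockout group and -0.06 ± 0.36 in the controls (SD, n = 5 each), with overlapping groups. Exons of Rtl10 share 146 bases (16.9% of its exonic bases) with those of Gnb1l on the same strand. Reads from there cannot be told apart by strand, so the values of Rtl10 and Gnb1l may not be separate readings. Without the count of removed terms 2510002D24Rik was the only one of the 6 to pass.

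Flanking genes had small differences. The 16 genes tested within 1 Mb of the interval, all on the side of Zdhhc8, ran from -0.28 to 0.13, with a median of 0.02, and none passed in limma, also at an unadjusted p of 0.05 and also where the removed terms were not counted.

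**Figure D3:**
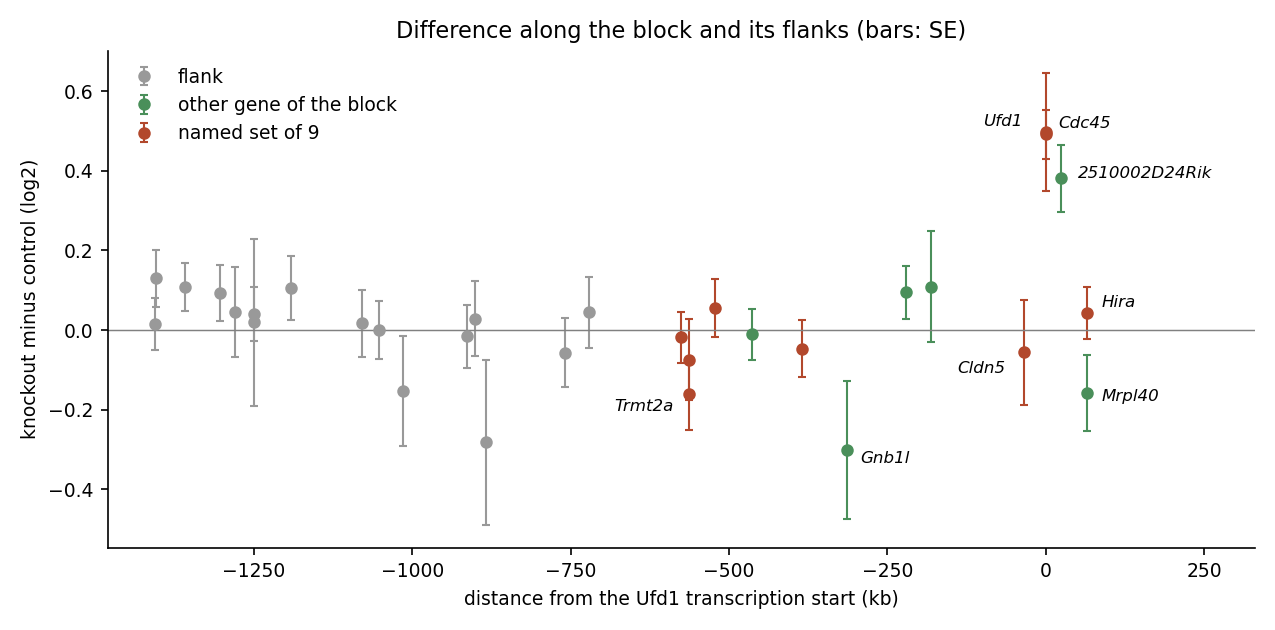
Log2 difference between knockout and control libraries with its SE (y axis) against the distance of each gene's start from that of Ufd1 in kb (x axis), for the 9 genes, 6 other genes of the interval and 16 flanking genes. The 3 adjacent genes Cdc45, Ufd1 and 2510002D24Rik stand between 0.38 and 0.50, and the nearest genes on either side, Cldn5 (-0.06), Mrpl40 (-0.16) and Hira (0.04), lie near or below 0.

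Ufd1 and Cdc45 were not the only neighbours with facing starts. Of 3 head-to-head pairs reported there (opposite strands, diverging, starts within 1000 bases), all with at least 1 of the 9 genes, 2 differed in the same direction. Ufd1 and Cdc45 had 0.49 and 0.50. Trmt2a and Ranbp1, whose annotated starts are 53 bases apart and whose windows share 288 bases, had -0.16 and -0.07. Hira and Mrpl40 went opposite ways, with 0.04 and -0.16. Among 934 head-to-head pairs of genes tested, 53.4% had differences of the same sign. When pairs were ordered by the smaller of their differences, a listing made after the values were seen, Ufd1 with Cdc45 came first, and the next was Gm16062 with Flcn (0.39 and 0.53). Neighbouring genes with overlapping ends can share reads, so these values are a description.

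**Figure D4:**
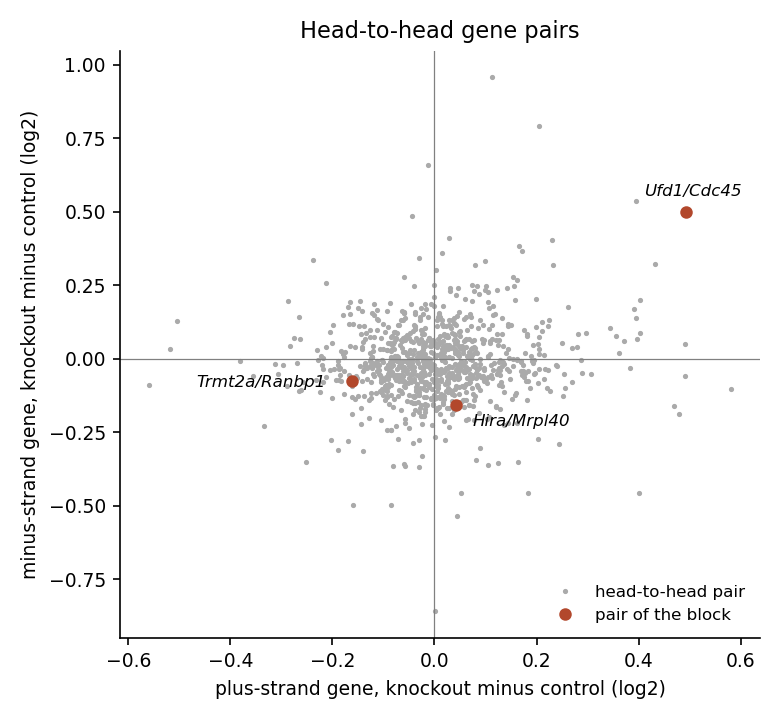
Log2 difference between knockout and control libraries of the plus-strand gene (x axis) and the minus-strand gene (y axis) of 934 head-to-head pairs; grey dots are pairs and red dots the 3 pairs of the block. Ufd1 with Cdc45 lies at the upper right (0.49 and 0.50), and the other 2 block pairs lie near the centre.

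The genes that work with UFD1 and CDC45 gave no calls. Of 15 other genes of the p97 and UFD1 pathway tested, none passed in limma in either direction, beside 0.335% of all genes tested. At that share, a list this short without a call is near the background. None of the 15 had an unadjusted p under 0.05, beside 10.1% of all genes tested. The differences of the 15 ran from -0.10 to 0.16 with a median of 0.0064. Named after their values were seen, the ATPase gene Vcp differed by -0.07 (SE 0.05) and Nploc4, which encodes the direct partner NPL4, by -0.04 (SE 0.06). Faf2 (0.16; adjusted p = 0.559) and Sel1l (0.09; adjusted p = 0.619) came closest.

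Of 27 replication genes listed, 15 could be tested and none passed, again beside 0.335% of all genes tested. None was at an unadjusted p under 0.05, beside 10.1% of all genes tested, and the median difference was -0.05. The MCM ring genes Mcm2 to Mcm7 ran from -0.24 to 0.23 and the GINS gene Gins4 differed by 0.19 (adjusted p = 0.540, and 0.0405 where the removed terms were not counted). Orc5 differed by -0.15 (adjusted p = 0.635). None of 8 markers of cycling cells (Mki67, Top2a, Ccnb1, Ccna2, Cdk1, Birc5, Bub1 and Aurkb) was among the genes analysed here. The 3 satellite cell markers tested (Pax7, Myf5 and Chodl) all had differences below 0, with overlapping groups for each. None of these 3 passed in limma or had an unadjusted p under 0.05. They summed to between 10.7 and 11.6 CPM in the knockout group and between 11.7 and 13.1 CPM in the controls. In whole muscle, fewer cells of a type and less RNA per cell cannot be told apart.

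Partners of the other 7 gave no calls either. Over the 9 lists together, 111 genes were tested and 0 passed in limma in either direction, 12 had an unadjusted p under 0.05 (beside 10.1% of all genes tested), 54 were above 0 and 57 below, and the median was -0.0042, beside -0.0041 over all genes. Where the removed terms were not counted, 8 passed upward and 4 downward, beside 5.15% and 3.48% of all genes. Among partners of DGCR8 in small RNA processing, Ago2 (0.21; adjusted p = 0.242) and Dicer1 (0.16; adjusted p = 0.355) came closest, and 8 of 11 were above 0 with a median of 0.06. Among HIRA partners Ubn1, a subunit of the same chaperone, differed by 0.19 (adjusted p = 0.306) and the histone gene H3f3b by -0.19 (adjusted p = 0.320). In the thioredoxin system the cytosolic reductase gene Txnrd1 differed by 0.16 (adjusted p = 0.343) and Txn1 by -0.16 (adjusted p = 0.468), with 10 of 12 below 0. Over all genes tested, 5936 were above 0 and 6287 below. Their median difference rose with transcript length, from -0.039 in the shortest of 5 classes to 0.045 in the longest. The part of length in the directions within each list was not tested.

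In the Ran cycle, the Ran importer gene Nutf2 (-0.28; adjusted p = 0.529) and the exportin gene Xpo1 (0.10; adjusted p = 0.708) came closest of 9. Of 15 other transfer RNA methyltransferase genes, Trmt11 (-0.34; adjusted p = 0.447) and Trmt10b (-0.26; adjusted p = 0.647) did, and of 18 other palmitoyltransferase genes Zdhhc23 (0.32; adjusted p = 0.313) and Zdhhc5 (0.16; adjusted p = 0.326). For Cldn5, 8 other junction genes had a median of -0.0033, with Jam3 (-0.32; adjusted p = 0.371) and Cldn1 (-0.56; adjusted p = 0.529) closest. The 10 endothelial markers summed to between 384 and 402 CPM in the knockout group and between 365 and 389 CPM in the controls, and none passed. Eng came closest (0.31; adjusted p = 0.215). The 4 adipocyte markers were Adipoq, Plin1, Cfd and Lep. They summed to between 7.83 and 12.0 CPM in the knockout group and between 14.4 and 25.8 CPM in the controls. All 4 had differences below 0 and none passed the threshold. All 4 had an unadjusted p under 0.05, beside 10.1% of all genes tested. Where the removed terms were not counted, 3 of the 4 passed downward, beside 3.48% of all genes. Eng then passed upward (limma, adjusted p = 0.0276), beside 5.15% of all genes. The 5 macrophage markers, summing to between 24.5 and 26.5 CPM and between 25.5 and 28.8 CPM, were also all below 0, and none passed. Of 4 fibroblast markers 3 were below 0 and 1 above, and of 5 smooth muscle and pericyte markers 3 were below and 2 above. None of these passed either. The part of such shifts in the values of the 9 genes was not tested.

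**Figure D5:**
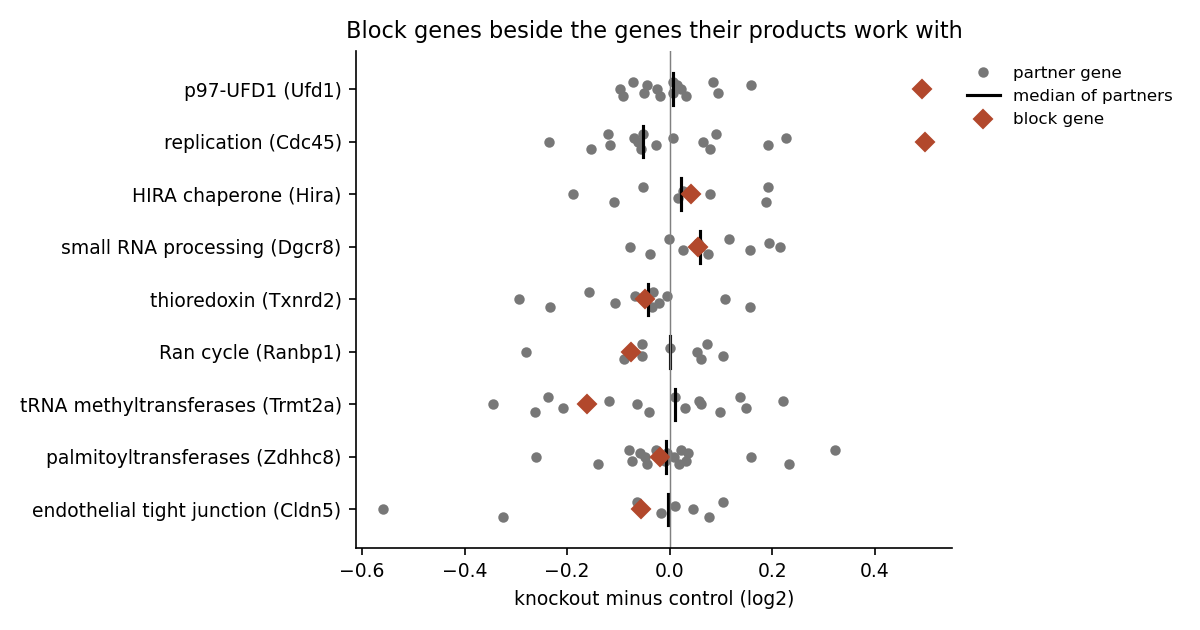
Log2 difference between knockout and control libraries (x axis) of each partner gene (grey dots, with the list median as a black bar) and of the block gene it belongs with (red diamonds), by list (y axis). The diamonds of Ufd1 (0.49) and Cdc45 (0.50) lie to the right of every gene of their lists, and the other 7 lie among theirs.

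Levels of the 9 genes differed widely. Per kb of the longest transcript in the annotation, which may differ from the form present in muscle, Ufd1 stood at 23.6 ± 1.16 CPM per kb in the controls and 33.2 ± 0.613 in the knockout group (SD, n = 5 each). In the controls Zdhhc8 (6.49 ± 0.218), Ranbp1 (6.11 ± 0.407), Hira (5.10 ± 0.109), Txnrd2 (4.90 ± 0.0583), Dgcr8 (3.05 ± 0.0496), Cldn5 (2.62 ± 0.244), Trmt2a (2.35 ± 0.0837) and Cdc45 (1.01 ± 0.104) followed. The order was the same in the knockout group, where Cdc45 stood at 1.42 ± 0.0595 CPM per kb. Among controls the ranges of Zdhhc8 and Ranbp1 overlapped, as did those of Dgcr8 and Cldn5 and those of Cldn5 and Trmt2a, while no neighbours in the order overlapped in the knockout group.

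The genes most like Ufd1 over the 10 libraries were Cnksr1 (Pearson r = 0.999), Paox (0.999) and Dhx9 (0.998), and the most opposite were Mat2b (-0.999), Ggnbp2 (-0.994) and Bbs5 (-0.993). For Cdc45 they were Utrn, Sun1 and Trp53bp1 (0.997 each), and Prorsd1 (-0.998), Lrrfip1 (-0.997) and Atp6v1g1 (-0.995). None of these 12 genes lies on chromosome 16. Adjusted values leave few free directions, and 405 genes (3.31%) had an r of at least 0.9 with Ufd1. Cdc45 was one of them (r = 0.953, place 149 of 12222), as was 2510002D24Rik (0.960). The r values share the genotype difference and the removed terms, so they carry no test.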

How the data were processed

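The deposited table gives adjusted log2 CPM for each gene and library, made by the authors from reads handled with fastp, kallisto (assignment of reads to transcripts) and limma, per the submitters' processing notes. No source used here gives versions, the genome build or the annotation. Residuals of all genes from litter and genotype spanned 3 of 6 dimensions, so 3 removed terms were found and entered in the fit with litter and genotype, leaving 3 residual degrees of freedom. The 12223 genes whose mean log2 CPM was 0 or more were tested with limma 3.58.1 in R 4.3.3 (eBayes with a trend), two-sided, with Benjamini-Hochberg adjustment over all of them and a threshold of 0.05; no pseudocount was added. The fit was checked on simulated data. Positions and lengths came from GENCODE M21 (GRCm38, 99.1% of tested genes matched by identifier) and start windows from RefSeq, which held all 9 genes. Partner genes named are the 2 closest to the threshold in each list, and genes of the interval those in a head-to-head pair with 1 of the 9 or, as none passed, the 3 with the largest differences. A further gene of the interval entered the fit over all genes and is not reported here. Vcp, Nploc4 and the MCM range were added after values were seen. The 9 genes and all lists were chosen with earlier results of these data known. Alternatives changed the residual degrees of freedom, litter term, pseudocount, filter, variance trend, centring, transcript length, replicate number and each library. The depth per library is unknown, so no counting interval is given.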

Additional observations from a re-analysis of the deposited data

Results flagged for a closer look

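Of 24 groups of 5 libraries (12 genes in 2 groups each), 2 held a library far from the others. The cut-off flags about 1 in 20 groups where values are independent. Adjusted values are tied to each other, so that rate need not hold here. Ranbp1 in control replicate 5 was 2.55 log2 CPM, where the next lowest control had 2.75. Mrpl40 in knockout replicate 4 was 3.23 log2 CPM, where the next highest knockout library had 3.07.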

How the results depend on the processing

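The 9 genes were chosen from this comparison, so their calls under other settings are a description. Without the trend in the prior variance, 0 of the 9 genes passed, and over all genes 0 rose and 1 fell. With 6 residual degrees of freedom counted, more than the residuals hold, 629 genes rose and 425 fell. Among them were 2 of the 9 genes and 1 other gene of the interval (both upward only). In the partner lists, 1 of 15 replication, 1 of 8 HIRA and 3 of 11 small RNA genes then rose. So did 1 of 12 thioredoxin and 2 of 18 palmitoyltransferase genes, beside 5.15% of all genes. In the HIRA list 1 of 8 fell, and in the thioredoxin list 1 of 12. So did 1 of 15 transfer RNA methyltransferase and 1 of 8 tight junction genes, beside 3.48% of all genes. On log2(CPM + 1) the Cdc45 difference was 0.36. The median of the other genes of the interval was 0.095 where the minimum mean log2 CPM was 1 (without Gnb1l). The median difference over all genes was -0.039 in the shortest of 5 classes of transcript length and 0.045 in the longest. Ranbp1 (-0.07) and Cldn5 (-0.06) belong to the shortest class, as do 2510002D24Rik (0.38) and Mrpl40 (-0.16). The part of length in these differences was not tested. Subtraction of the median of genes of like transcript length put Txnrd2 at -0.019. Of 171 member differences under all alternatives, 2 moved beyond the library spread.

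Whether replicate numbers pair the samples is not stated and cannot be read from the adjusted values. Deviations of same-numbered libraries correlated at -0.846, 0.452, 0.0316 and -0.502 for numbers 1, 3, 4 and 5. Removal of litter and further terms ties the deviations of libraries in a litter to each other, so these values do not decide it. The libraries numbered 4 came from litter 112 in the knockout group and litter 110 in the controls. The fit with the replicate block took only the libraries numbered 1, 3, 4 and 5 and had no litter term. In it 98 genes rose and 29 fell. Among those that rose were 2 of the 9 genes and 1 other gene of the interval, 2510002D24Rik (limma, adjusted p = 0.0330).

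With each library left out in turn, the counts over all genes ran from 6 to 49 upward and from 2 to 15 downward. Leaving out knockout replicate 3 gave 8 and 3. Leaving out controls gave 6 and 2 (replicate 1), 16 and 4 (replicate 5), 12 and 5 (replicate 6) and, for replicate 4, 15 downward. The median of the 9 genes ran from -0.042 to 0.016 that of the flanks from 0.0069 to 0.051, and that of the other genes of the interval from 0.0040 (without control replicate 5) to 0.063. Ufd1 ran from 0.45 to 0.52, Cdc45 from 0.45 to 0.57 and 2510002D24Rik from 0.37 to 0.40. Depth is unknown, so what it limits could not be given.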
